A study of Mus musculus with 6 samples.

Results

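The genes described here encode the proteins of the cytosolic ribosome, together with a few close copies of them. They were chosen by symbol alone, as the rows named Rpl or Rps followed by a number (with an optional a, l or x and an optional 1), Rplp0, Rplp1, Rplp2 and Rpsa, which took 84 of 27378 listed genes. Of the 84, 81 had a mean of at least 1 FPKM (reads scaled by gene length and by the library's total) over the libraries and were tested, among 12229 tested genes in all. They comprised 49 large subunit genes (Rpl and Rplp) and 32 small subunit genes (Rps and Rpsa). Brain RNA was sequenced from male C57BL/6J mice of wild-type genotype. The PS group, with 3 libraries, had received polystyrene nanoplastics, small particles of a common plastic, into the nose over 28 days. The Control group, also with 3 libraries, had received sterile water by that route over the same 28 days. The mice's ages, the particle dose and whether each library came from its own animal are not stated in the labels, so p-values measure the spread between these libraries, which may be partly technical.

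A ribosome reads messenger RNA and joins amino acids into protein. Its small subunit, which decodes the message, and its large subunit, which forms the peptide bond, each hold ribosomal RNA and many proteins, mostly present once per ribosome. In mammals the messages of these proteins begin with a run of pyrimidines (C and U), the TOP motif, through which the kinase complex mTORC1 and the RNA-binding protein LARP1 set their translation together. Neurons also carry ribosomes and these messages into dendrites and axons. In whole tissue, fewer cells of a type and less RNA per cell cannot be told apart.

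The start of these genes could be read for 63 of the 84, matched by symbol to RefSeq promoter sequences of build GRCm38.p6 (the deposited values were made on GRCm39, so these coordinates belong to the older build only). The lines below run from 30 bases before to 20 bases after the annotated start, and capitals mark a run of at least 8 C or T that touches the 5 bases on either side of that start. They show genes that the results below return to: Rpl15 and Rps10 from opposite ends of the fold changes, Rps27 with the shortest gene model, the stalk gene Rplp2, and 2 paralogs, one with such a run and one without.
Rpl15: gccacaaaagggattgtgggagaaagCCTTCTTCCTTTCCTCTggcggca
Rps10: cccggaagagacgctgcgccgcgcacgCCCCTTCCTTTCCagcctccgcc
Rps27: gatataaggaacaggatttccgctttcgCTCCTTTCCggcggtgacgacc
Rplp2: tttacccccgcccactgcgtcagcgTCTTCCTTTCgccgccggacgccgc
Rpl22l1: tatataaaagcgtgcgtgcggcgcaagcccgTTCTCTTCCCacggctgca
Rpl7l1: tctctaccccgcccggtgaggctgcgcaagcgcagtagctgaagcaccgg
The windows lie at chr14:18270967-18271016 on the minus strand for Rpl15, chr17:27635225-27635274 (minus) for Rps10, chr3:90213629-90213678 (minus) for Rps27, chr7:141447621-141447670 (plus) for Rplp2, chr3:28805478-28805527 (plus) for Rpl22l1 and chr17:46782637-46782686 (minus) for Rpl7l1. The run holds 17 bases in Rpl15, 13 in Rps10, 10 in Rplp2 and Rpl22l1, and 9 in Rps27. On the gene's own strand such a run at the start was found in 25 of the 63 ribosomal protein genes (39.7%), against 10.96% of 27025 genes with a promoter in the table. On the other strand, read as a run of A or G, the shares were 4.76% of the ribosomal protein genes and 12.1% of all. Runs beginning anywhere between 20 bases before and 50 bases after the start were also counted. In this wider window 48 ribosomal protein genes (76.2%) held one, against 27.3% of all genes. The letters CCGGAAG, on either strand, occurred within the 300 bases in 41.3% of the ribosomal protein genes and 9.93% of all genes. These are counts of letters in annotated windows and show no binding.

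Ribosomal protein genes were among the most abundant messages of these brains. The median member stood at 230.9 FPKM over the 6 libraries, above 98.6% of the tested genes, whose own median was 8.26 FPKM. In all, 70 of the 81 tested members exceeded a mean of 100 FPKM, against 4.36% of the tested genes. Together the 84 genes made up 5.54, 6.11 and 6.30% of the summed FPKM in PS libraries 1, 2 and 3, and 6.12, 5.65 and 5.98% in Control libraries 1, 2 and 3. The mean share was 5.98 ± 0.395% in PS and 5.92 ± 0.242% in Control brains (SD, n = 3 each), so the difference was smaller than the spread within either group.

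The highest member was Rplp1, a protein of the acidic stalk that recruits elongation factors. It stood at 791.3, 944.7 and 944.4 FPKM in PS brains, against 879.1, 860.3 and 944.7 FPKM in Control brains, so the groups overlapped. Rpl41, which encodes the smallest protein of the ribosome, stood at 613.7, 700.3 and 735.0 FPKM in PS and 720.5, 651.2 and 684.2 FPKM in Control brains. Its PS values spread around the Control values on both sides. Rps29, a zinc-binding protein of the small subunit, stood at 500.9, 604.7 and 639.8 FPKM in PS and 600.3, 533.0 and 570.8 FPKM in Control brains. Rps15 averaged 531.2 ± 45.0 FPKM in PS and 529.7 ± 19.8 FPKM in Control brains. Rpl26 averaged 452.1 ± 46.6 FPKM in PS and 460.1 ± 34.2 FPKM in Control brains, and Rpl13a 455.2 ± 38.4 and 446.8 ± 36.1 FPKM (PS, then Control). None of these 6 most abundant members differed between groups by more than the SD within a group.

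The FPKM of the tested members ranged 199-fold, between 4.50 FPKM for the paralog Rps27l and 894.1 FPKM for Rplp1. The gene lengths by which reads were divided, recovered from the values, also ranged widely (between 346 bases for Rps27 and 5136 bases for Rps15a, median 821). Rps15a, on the longest gene model, averaged 33.8 ± 1.11 FPKM in PS and 33.0 ± 2.57 FPKM in Control brains but carried a mean of 6833 reads per library, close to the median member's 7256. Rps20 (3446 bases), Rpl22 (2343 bases) and Rpl21 (1856 bases) were likewise under 50 FPKM, at overall means of 40.8, 45.0 and 44.5 FPKM. Across 80 tested members the rank correlation of FPKM with gene length was -0.63, and that of read number with gene length 0.20; length is a divisor of FPKM, so the first is given as a description only.

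**Figure D1:**
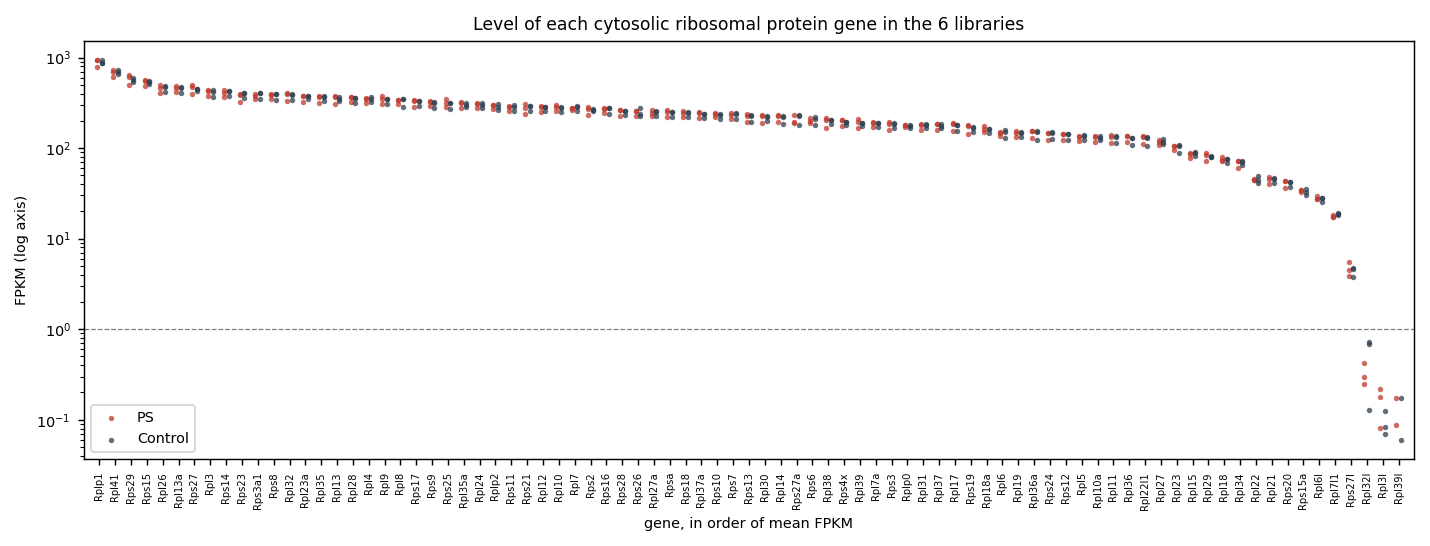
FPKM (log axis) of 83 of the 84 ribosomal protein genes in each library, ordered by mean level; red points are the 3 PS libraries and dark points the 3 Control libraries, the dashed line is 1 FPKM, and values of 0 are not drawn. Except for the paralogs at the right end, the points of both groups lie on top of each other, and 3 genes fall below the line.

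Many ribosomal protein genes have processed copies in the genome, and reads that fit several places may be lost or split; the sources used here do not say how the authors' counting treated them. In the GENCODE M21 transcripts, 79 of the 82 members annotated there as protein coding shared at least one word of 50 bases with a transcript of another gene. The median member shared 34.8% of its words, and 22 members shared over 50%. Rpl36 (81.1%) and Rpl23a (82.6%), which appear below among the genes with the lowest p-values, were near the upper end. The levels of such members are uncertain in every library. The rank correlation of FPKM with the shared percentage was 0.22 over 80 members.

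The comparison of PS with Control brains asked whether nanoplastic exposure went with a change in the messages of the ribosome. None of the 81 tested members was called higher or lower (limma, Benjamini-Hochberg adjusted p under 0.05 over all 12229 genes), and none had an unadjusted p under 0.05. Over all tested genes 0.164% were called, all of them lower in PS, and 5.94% had an unadjusted p under 0.05. With limma-voom on whole reads recovered from the FPKM values, 0 members were called and 0 had an unadjusted p under 0.05, beside 0.237 and 6.12% of all tested genes. With the replicate number as a block the member counts were again 0 and 0, beside 0.393 and 7.76% of all tested genes. The lowest adjusted p of any member was 0.946 in the group-only fit, 0.944 with voom and 0.876 with the block. It was 0.563 without Control library 3. With sample weights, which called 632 of all tested genes and 0 members, it was 0.155 (Rpl7l1, limma unadjusted p = 0.032). In the group-only fit, log2 fold changes (of FPKM + 1, PS over Control) lay between -0.08 and 0.08, that is, between 0.945-fold and 1.06-fold. All 81 were within 0.1 of 0, where 73.8% of the tested genes were. Of the members, 46 had positive and 35 negative values, and the median was 0.0066, beside a median of 0.0030 over all tested genes. The 49 large subunit genes had a median of 0.013 (30 positive, 19 negative) and the 32 small subunit genes a median of -0.00013 (16 positive, 16 negative). The members moved together over the libraries (described below), so these counts do not rest on 81 separate observations. With a library left out, single members reached -0.145 (without Control library 2) and 0.156 (without PS library 1).

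The 95% confidence intervals say how large a difference these libraries leave room for in a single gene. Across the 81 members the intervals, each taken for its own gene, reached no lower than -0.29 (Rps23) and no higher than 0.31 (Rps27l) on the log2 scale, or 0.817-fold and 1.24-fold. Missing the threshold does not show that the levels were equal.

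**Figure D2:**
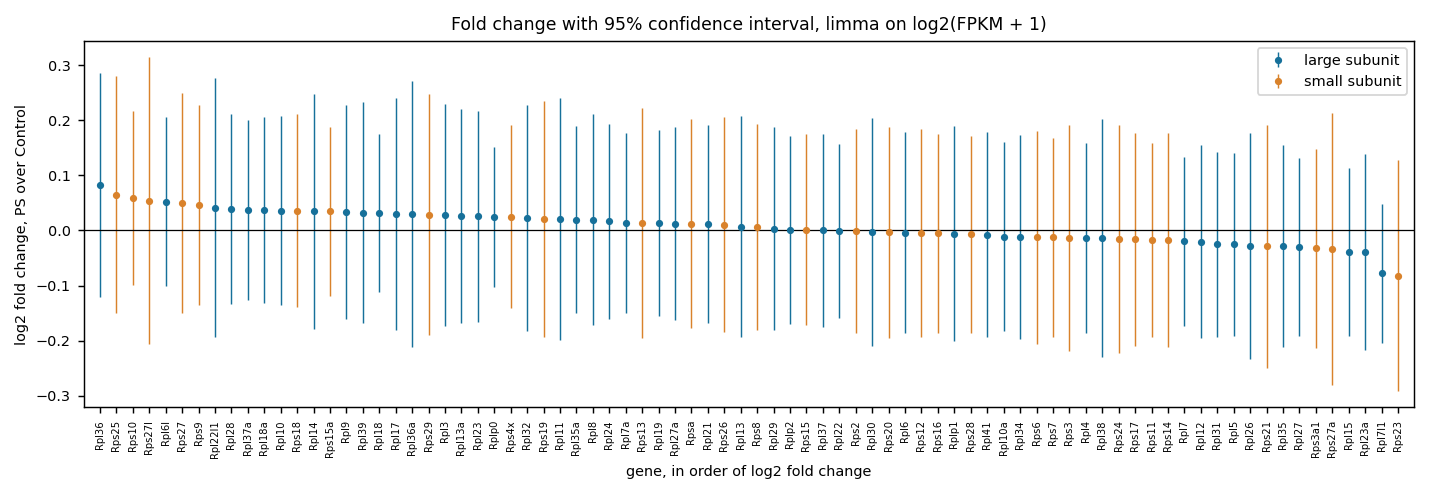
Log2 fold change (PS over Control) of 80 of the 81 tested ribosomal protein genes, ordered by value, with the 95% confidence interval from limma; blue marks the large and orange the small subunit. Every interval includes 0, and the estimates run between 0.08 for Rpl36 and -0.08 for Rps23.

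At the upper end lay Rpl36, a large subunit protein, at 117.0, 136.0 and 137.2 FPKM in PS brains, against 130.9, 109.2 and 128.6 FPKM in Control brains. The lowest PS value lay between the Control values (log2 fold change 0.08, SE 0.090, 95% interval -0.12 to 0.29, limma adjusted p = 0.976). Rps25, a small subunit protein used by several viral messages to start translation, averaged 313.8 ± 31.9 FPKM in PS and 299.8 ± 28.6 FPKM in Control brains (log2 fold change 0.07). Rps10, mutated in some human patients with Diamond-Blackfan anemia, averaged 235.6 ± 12.9 FPKM in PS and 226.3 ± 14.2 FPKM in Control brains (0.06). Rpl6l, named as a copy of Rpl6, averaged 28.2 ± 1.39 FPKM in PS and 27.2 ± 1.79 FPKM in Control brains (0.05). In each of these 4 genes the groups overlapped.

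At the lower end lay Rps23, a protein at the decoding centre of the small subunit. It stood at 322.9, 389.9 and 394.5 FPKM in PS brains, against 405.2, 357.1 and 407.3 FPKM in Control brains. One PS library was below all others, and the other PS libraries lay between the Control values (log2 fold change -0.08, SE 0.092, 95% interval -0.29 to 0.13, limma adjusted p = 0.979). Rpl15 averaged 84.2 ± 4.91 FPKM in PS and 86.6 ± 4.79 FPKM in Control brains, and Rpl23a, which lies at the exit of the peptide tunnel, 359.8 ± 33.2 FPKM in PS and 368.9 ± 14.8 FPKM in Control brains (log2 fold change -0.04 for both).

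The member with the lowest p of all was Rpl7l1, a paralog of Rpl7. It stood at 17.2, 17.5 and 18.3 FPKM in PS brains, against 19.1, 18.4 and 18.5 FPKM in Control brains. Its PS values all lay below its Control values, by little (log2 fold change -0.08, SE 0.056, 95% interval -0.20 to 0.05, limma adjusted p = 0.946, unadjusted p = 0.195). It was the only member without overlap between groups, 1 of 81 (1.23%), where 11.3% of all tested genes showed none. Because the members moved together, that share does not rest on 81 separate observations.

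The stalk genes, whose proteins bind the translation factors, had log2 fold changes of 0.02 for Rplp0, -0.0057 for Rplp1 and 0.0013 for Rplp2. Rplp0, widely used as a reference gene, stood at 172.5, 178.5 and 181.2 FPKM in PS brains and 176.9, 167.5 and 178.8 FPKM in Control brains. Of all tested members it varied least over the 6 libraries, with an SD of 0.041 on the log2 scale, whereas Rps27l varied most (0.162). Rplp2 averaged 287.8 ± 16.4 FPKM in PS and 287.8 ± 22.3 FPKM in Control brains.

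Paralogs differed widely in level. Rpl22l1, a paralog of Rpl22, stood at 110.6, 132.4 and 135.5 FPKM in PS brains and 129.0, 106.3 and 132.6 FPKM in Control brains, above Rpl22 itself in every library. The ratio of Rpl22l1 to Rpl22 in FPKM was 2.81 ± 0.266 in PS and 2.72 ± 0.181 in Control brains. Their gene models differ in length (489 bases for Rpl22l1 and 2343 for Rpl22), and Rpl22 carried more reads, with a mean of 4197 per library against 2423 for Rpl22l1. Rpl7l1 stood at 6.58, 6.33 and 6.60% of the Rpl7 level in PS and 6.80, 7.25 and 6.35% in Control brains, which overlap. Rpl6l stood at 19.8, 20.04 and 18.3% of Rpl6 in PS and 18.6, 19.3 and 17.9% in Control brains. Rps27l, which in human cells is induced by p53, stood at 3.85, 5.49 and 4.49 FPKM in PS and 4.58, 3.81 and 4.76 FPKM in Control brains, near 1% of Rps27 in FPKM. Gene lengths differ here too, so these percentages hold for FPKM and not for reads. Rps27l (2748 bases) carried a mean of 493 reads per library, and Rps27 (346 bases) 6193. For Rpl7l1 (2606 bases) the mean was 1887 reads, and for Rpl7 (934 bases) 10182. In none of these pairs did the ratio separate the groups.

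Of the 8 paralog symbols listed for this purpose, Rpl10l, Rps4l and Rpl26l1 were not among the members. These symbols fit the rule, but the deposited values list no gene under them. The 3 members that failed the expression filter were all copies of other ribosomal protein genes. Rpl3l, which replaces Rpl3 in striated muscle, had 6, 16 and 13 reads in PS libraries and 6, 5 and 9 reads in Control libraries. Rpl39l, known from the testis, had 0, 6 and 3 reads in PS and 6, 2 and 0 reads in Control libraries. Rpl32l had 7, 6 and 10 reads in PS and 17, 3 and 16 reads in Control libraries, or 0.295, 0.251 and 0.422 FPKM against 0.723, 0.129 and 0.682 FPKM. At this depth no difference could be read for any of the 3, and both groups overlapped.

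While the groups did not separate, single libraries did. In all 81 tested members PS library 1 was the lowest of the PS libraries, and in all 81 Control library 2 was the lowest of the Control libraries. Over all tested genes PS library 1 was lowest of its group in 36.5% and Control library 2 in 41.9%. Relative to each gene's mean over the 6 libraries, the median member deviated by -0.13, 0.05 and 0.09 (log2) in PS libraries 1, 2 and 3, and by 0.05, -0.11 and 0.06 in Control libraries 1, 2 and 3. The median levels in the low libraries were 0.917 times (PS library 1) and 0.924 times (Control library 2) the gene's mean. Within groups the SD over libraries was 8.48% of the mean for the median member in PS and 7.0% in Control brains, several times the 1.17% that counting its reads alone would give. The members moved together: over the 6 deviations from group means the median correlation between 2 members was 0.93, and 68 of 81 members correlated above 0.9 with the members' median; these points share their libraries, so the values are descriptions.

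**Figure D3:**
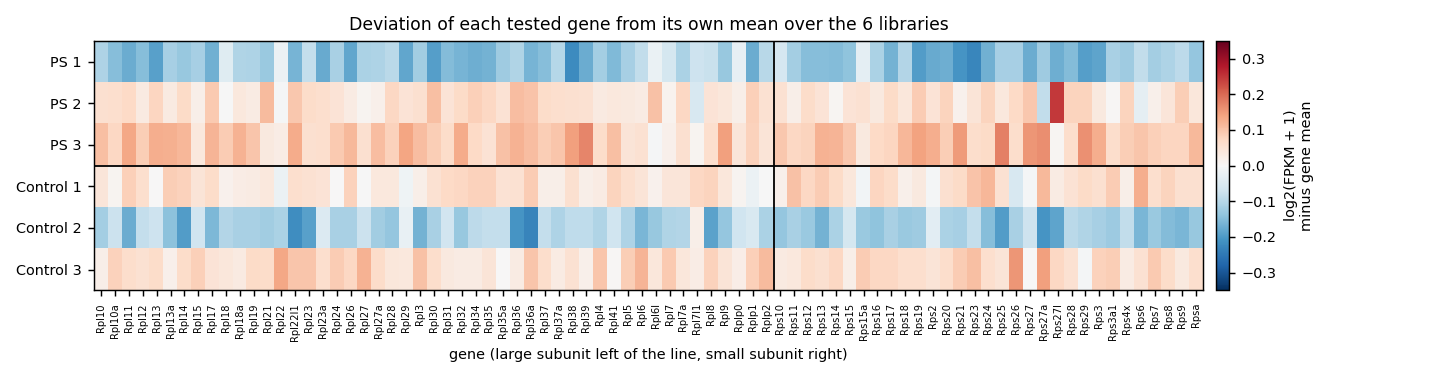
Deviation of log2(FPKM + 1) from each gene's own mean over the 6 libraries (colour), for 80 of the 81 tested ribosomal protein genes in columns and the libraries in rows, PS above Control. The rows of PS library 1 and Control library 2 are blue for nearly every gene, with median deviations of -0.13 and -0.11, and the other 4 rows are mostly red.

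Each group held 1 low library. The balance of positive and negative members shifted when any library, low or not, was left out, though in no case was a member called. Without PS library 1 the median log2 fold change was 0.07 with 80 of 81 positive, and without Control library 2 it was -0.05 with 78 of 81 negative. Leaving out PS library 2 gave 25 positive and 56 negative members, and PS library 3 gave 9 and 72. For Control library 1 the counts were 66 and 15, and for Control library 3 they were 72 and 9. Without both low libraries (chosen after seeing the data) the median was 0.02, with 58 positive and 23 negative. The log2 fold changes then lay between -0.09 and 0.13. Rps27 alone had an unadjusted p under 0.05 in this fit (limma unadjusted p = 0.035, lowest adjusted p of any member 0.994). The share of all tested genes under 0.05 was not counted for it, so nothing is read from this p. Rps27, a zinc-binding protein of the small subunit, stood at 397.2, 478.3 and 498.7 FPKM in PS and 446.8, 426.3 and 448.4 FPKM in Control brains.

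The same 2 libraries were low in other short messages. Among 618 other tested genes with a length under 1000 bases, the median deviation was -0.06, 0.07 and 0.05 in PS libraries 1, 2 and 3 and 0.02, -0.13 and 0.06 in Control libraries 1, 2 and 3. Among 7498 other genes over 3000 bases it was 0.01 in PS library 1 and 0.02 in Control library 2, so long genes did not share the low values. For 75 nuclear genes of the respiratory chain and ATP synthase, which are short and abundant like the ribosomal protein genes (median length 795 bases), the median deviation was -0.06 in PS library 1 and -0.14 in Control library 2. The ribosomal protein genes lay below this set in PS library 1, and above it in Control library 2. The part of gene length or RNA quality in these shifts was not tested.

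**Figure D4:**
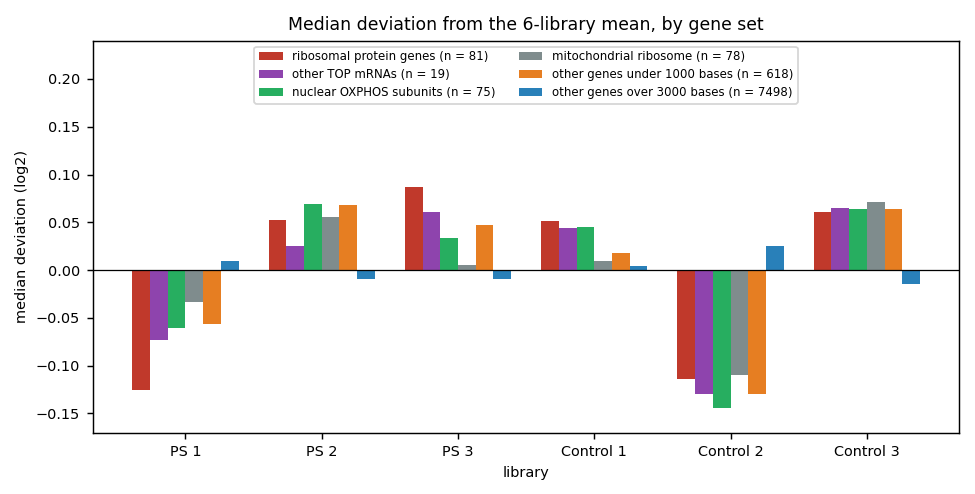
Median deviation of log2(FPKM + 1) from the 6-library mean in each library, for the ribosomal protein genes and 5 other gene sets (colours, with the number of genes); bars start at 0. In PS library 1 and Control library 2 the ribosomal protein genes stand at -0.13 and -0.11 and every other set but the genes over 3000 bases is also below 0.

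The balance of the subunits varied much less than their sum. Summed large subunit over summed small subunit FPKM was 1.39, 1.39 and 1.37 in PS libraries and 1.37, 1.39 and 1.38 in Control libraries, with means of 1.38 ± 0.0114 in both groups. With every library scaled to the same summed FPKM of the members (also chosen after seeing the data), 0 members were called and 0 had an unadjusted p under 0.05, beside 0.368 and 3.11% of all tested genes. On that scale, which compares each member with the rest of the ribosome, log2 fold changes lay between -0.09 (Rps23) and 0.08 (Rpl36), and the lowest limma unadjusted p was 0.216 (Rps23). The standard errors are drawn toward a variance trend over all tested genes, and this scaling moves the members' shared shifts into the other genes. They ran between 0.061 (Rplp1) and 0.120 (Rps27l), so the count of 0 says little about the members' own spread. Overlap between the groups was not counted on this scale.

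Cell type markers showed brain tissue in every library, and no defining marker was at 0 in all libraries. The 5 neuronal markers summed to 1649 to 1809 FPKM in PS and 1703 to 1744 FPKM in Control brains. Control library 2, where the ribosomal protein genes were low, also had the lowest sum of the 5 oligodendrocyte markers (951.5 FPKM, against 1273 and 1367 FPKM in the other Control libraries) and of the 5 choroid plexus markers (626.2 FPKM). PS library 1 had the highest choroid plexus sum (1281 FPKM). The 5 red-cell genes summed to 56.7 to 99.5 FPKM in PS and 127.4 to 196.4 FPKM in Control brains, without overlap. The part of cell composition in the ribosomal protein values was not tested.

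Of 6 ribosomal components and copies outside the symbol rule, 0 were called, with log2 fold changes between -0.16 and 0.04 (1 was called with sample weights). Fau, which encodes the small subunit protein eS30 fused to a ubiquitin-like protein, averaged 210.9 ± 26.4 FPKM in PS and 208.9 ± 19.3 FPKM in Control brains (log2 fold change 0.01). The scaffold protein gene Rack1 averaged 152.9 ± 9.69 FPKM in PS and 148.2 ± 6.55 FPKM in Control brains. The lowest p among these 6 genes belonged to Rps27rt and Rpl37rt, with 11.9 ± 0.856 and 19.4 ± 2.18 FPKM in PS, against 13.3 ± 1.21 and 21.7 ± 1.14 FPKM in Control brains (limma adjusted p = 0.868 for both). Neither was called, and reads of such copies can be mixed with those of their parent genes.

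Of the 18 ribosomal protein genes mutated in human Diamond-Blackfan anemia, in which red cell formation fails, none was called, 8 were positive and 10 negative, with a median of -0.01. Rps19, the gene most often mutated in that disease, averaged 166.7 ± 20.2 FPKM in PS and 163.7 ± 11.1 FPKM in Control brains. Rpl5 and Rpl11, which with 5S RNA hold the p53 ligase Mdm2 in check when ribosome assembly fails, had log2 fold changes of -0.03 and 0.02. In the list of that checkpoint, Mdm2 averaged 5.34 ± 0.200 FPKM in PS and 6.02 ± 0.374 FPKM in Control brains (limma adjusted p = 0.844). The p53 target Cdkn1a averaged 30.3 ± 4.02 FPKM in PS and 48.4 ± 5.73 FPKM in Control brains and was not called in the group-only fit (log2 fold change -0.66, limma adjusted p = 0.0685), but was with the replicate number as a block (0.029) and with voom (0.0433).

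Other genes with TOP motifs and the translation factors gave no calls either. Of 19 TOP genes outside the symbol rule, Fau and Rack1 among them, 0 were called and 0 had an unadjusted p under 0.05, with a median of 0.01; the lowest p belonged to Pabpc1, the poly(A)-binding protein, at 52.7 ± 2.70 FPKM in PS and 56.9 ± 2.12 FPKM in Control brains, and to Hnrnpa1. In PS library 1 and Control library 2 their median deviations were -0.07 and -0.13, also the lowest of each group. Of 36 initiation factor genes, 0 were called and 0 had an unadjusted p under 0.05. The lowest p belonged to Pabpc1 and to Eif1a, which helps the small subunit scan for a start codon, with 15.1 ± 0.277 FPKM in PS and 16.6 ± 0.874 FPKM in Control brains (limma adjusted p = 0.844). Of 13 elongation and termination genes, 0 were called, and the lowest p belonged to Eef1a2, the neuronal and muscle form of elongation factor 1A (160.6 ± 6.29 FPKM in PS and 152.6 ± 3.76 FPKM in Control brains), and Eefsec. Among 9 host genes of small nucleolar RNAs, which guide modification of ribosomal RNA, 0 were called, with Snhg1 and Gas5 lowest in p.

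Among 44 ribosome assembly genes, 33 were negative and 11 positive, with a median of -0.03, and 0 were called (3 with sample weights). Of the 44, 5 had an unadjusted p under 0.05, all lower in PS (11.4% of the list, beside 5.94% of all tested genes in either direction). The lowest were Nob1, the nuclease that finishes the small subunit RNA, with 12.2 ± 0.304 FPKM in PS and 14.4 ± 0.442 FPKM in Control brains (log2 fold change -0.22, limma adjusted p = 0.450), and Bysl, a small subunit assembly factor, with 6.08 ± 0.330 FPKM in PS and 6.99 ± 0.381 FPKM in Control brains (-0.17, limma adjusted p = 0.782). Of 12 tested genes of RNA polymerase I and its factors, which transcribe ribosomal RNA, 0 were called, and Taf1d and Polr1b had the lowest p (limma adjusted p = 0.851 and 0.896).

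In the list of mTORC1 and TOP control, 1 of 33 genes was called. Ddit4, an inhibitor of mTORC1, stood at 26.6, 30.4 and 38.5 FPKM in PS brains, against 73.6, 63.1 and 60.4 FPKM in Control brains. All PS values lay below all Control values (log2 fold change -1.03, SE 0.127, limma adjusted p = 0.0176), and the call was lost without PS library 1 (limma adjusted p = 0.0621), PS library 2 (0.113) or Control library 1 (0.122), and with no filter on low genes (0.367). In these fits the log2 fold change was -0.92, -1.01, -0.95 and -1.03, in the same order. Next by p came Sesn1, another inhibitor of the pathway, with 24.4 ± 0.896 FPKM in PS and 27.7 ± 0.855 FPKM in Control brains (log2 fold change -0.18, limma adjusted p = 0.631). Mtor itself had a log2 fold change of 0.06 and Larp1 of 0.0093. These are RNA levels and do not measure translation.

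Ribosome surveillance genes (23 tested) and the mitochondrial ribosome (78 tested) had 0 calls each. In the first list Pelo and Ccdc124 had the lowest p (limma adjusted p = 0.866 and 0.903). In the mitochondrial ribosome, a separate machine that makes respiratory chain subunits, Mrpl55 averaged 19.3 ± 0.541 FPKM in PS and 17.5 ± 0.746 FPKM in Control brains (log2 fold change 0.13, limma adjusted p = 0.838), and Mrpl33 had a log2 fold change of 0.13. The 75 nuclear respiratory chain genes had 0 calls and a median of 0.03, with 61 positive, Atp5g2 and Ndufa7 being lowest in p. The 13 messages of the mitochondrial genome, in contrast, were negative in 12 cases with a median of -0.18. Among them ATP6 had 70.3 ± 16.8 FPKM in PS and 131.6 ± 10.6 FPKM in Control brains and was not called in the group-only fit (limma adjusted p = 0.0626), but was with the block (0.00164) and voom (0.0353). ATP8 had a limma adjusted p of 0.327 in the group-only fit and 0.0090 with the block. ATP6 was a very small part of this set, whose 13 messages held a mean of 10.5% of the summed FPKM in PS and 11.7% in Control brains. The processing notes do not say how reads of overlapping genes were counted, so the levels of ATP6 and ATP8 are uncertain.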

How the data were processed

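The 6 RNA sequencing libraries were used as deposited, 1 table per library. The values are FPKM computed by the authors; the submitters' processing notes name fastp, HISAT2, HTSeq, R 3.2.0 and the build GRCm39 but no settings or strand option, so overlapping genes and copies are uncertain. Per the labels' protocols, RNA came from TRIzol extraction and the kit was VAHTS Universal V6.

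Genes with a mean of at least 1 FPKM were kept, and log2(FPKM + 1) was compared with limma 3.58.1 in R 4.3.3 (two-sided, with group as the only term, 4 residual degrees of freedom and a variance trend), adjusted by Benjamini-Hochberg over 12229 genes. The log2 fold change understates changes of low genes. Exact permutation of 6 libraries gives no p under 0.1 and was not used. The tests were checked on simulated data.

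The FPKM values moved in whole steps: with totals found from the 13 mitochondrial genes and their annotated lengths, 99.99% of 26556 genes came out as whole reads in every library, within 0.02 reads. For each gene the shortest length that fitted was taken, so the check is weak for genes with few reads. In each PS library 3 neighbouring totals fitted, and in each Control library 6, and the one closest to whole reads was used. Totals were 39239183 to 40335590 reads, of which the members held 1.49 to 1.74%. Replicates differed by more than sampling noise (chi-square per degree of freedom 8.03 to 29.3), so none is a copy of another.

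Both groups number their libraries 1 to 3. Deviations from the group means correlated at 0.181, 0.185 and 0.161 between same-numbered libraries over all tested genes. By the rule used here (each over 0.1) this counts as pairing, from the data and not the labels. Other matchings of the libraries were not compared, so the rule cannot show that equal numbers belong together. Over the ribosomal protein genes the values were -0.187, 0.0256 and -0.206.

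The members and the lists were chosen with earlier results of these data known, and no list was tested as a whole. Members were named by rule: any called, the 6 most abundant, the 4 lowest p and the 2 largest changes in each direction, those failing the filter, paralogs, stalk genes, and the most and least variable; of other lists, any called and the 2 lowest p. Further genes named for their biology or length were chosen after their values were seen. Alternatives are given with their effect in the closing section; voom, scaling to the members' total and leaving out 2 libraries together were added after seeing the data. The values of 1 member and of 1 gene of another list are not reported here; counts and medians include them.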

Additional observations from a re-analysis of the deposited data

How the results depend on the processing

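The count of called ribosomal protein genes was 0 under each of the alternatives, which were other pseudocounts, filters, scalings and variance models, sample weights, the replicate block, each library left out, voom, scaling to the members' total, and leaving out PS library 1 and Control library 2 together. The replicate block changed no call of a member. The members' median stayed within the spread between libraries, between -0.05 and 0.07 with a library left out. With sample weights it was -0.02, with 27 members positive and 54 negative. The count over all genes, 20, was 1 (higher) with no filter, 9 at a mean of at least 5 FPKM, 632 with sample weights (297 higher, 335 lower), 48 with the replicate block (3 higher, 45 lower), 45 scaled to the members' total, 13 without both low libraries, and 0 to 66 with 1 library left out (17 higher and 49 lower at most). Among the other lists, sample weights called 3 ribosome assembly genes, 2 p53 checkpoint genes, 1 ribosomal component outside the symbol rule and 3 mitochondrially encoded genes. The p53 checkpoint list had 1 call with the block, voom, scaling to the members' total, without PS library 3 or without Control library 3. The mitochondrially encoded list had 2 with the block, 1 with voom, 3 scaled to the members' total, 1 without PS library 1 and 2 without both low libraries.

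Of the 18 named and tested members, 15 turned sign at least once, none with an adjusted p under 0.05; the cause was not tested. Scaled to the same median, Rps15 stood at -0.0010, Rplp2 at -0.00089. Quantile normalized, Rps15 stood at -0.072, Rpl13a at -0.0043. Scaled without mitochondrial genes, Rps15 stood at -0.0087, Rplp2 at -0.0085. Scaled without the members, Rplp1 stood at 0.0040, Rpl41 at 0.0020. With sample weights, Rplp1 stood at 0.031, Rps29 at -0.019, Rps15 at -0.018, Rpl13a at -0.043, Rpl22l1 at -0.0083. Scaled to the members' total, Rps15 stood at -0.0044, Rplp2 at -0.0042. Without both low libraries, Rplp1 stood at 0.052, Rpl41 at 0.031, Rpl23a at 0.0057, Rplp2 at -0.0057. With 1 library left out, the log2 fold change ran from -0.048 to 0.079 for Rplp1, from -0.063 to 0.067 for Rpl41, from -0.091 to 0.056 for Rpl26, from -0.14 to 0.011 for Rps23, from -0.084 to 0.0092 for Rpl15, from -0.079 to 0.039 for Rpl23a, from -0.044 to 0.13 for Rps29, from -0.046 to 0.072 for Rps15, from -0.056 to 0.15 for Rps27l, from -0.054 to 0.058 for Rplp2, from -0.039 to 0.092 for Rpl13a, from -0.017 to 0.14 for Rps25, from -0.057 to 0.13 for Rpl22l1, from -0.0011 to 0.085 for Rpl6l, from -0.0038 to 0.045 for Rplp0. For the median member the spread between libraries exceeded counting error, while depth limits the 3 members under 1 FPKM.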
